A study of Homo sapiens with 12 samples.

Results

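The genes described here are 35 known targets that the tumour suppressor p53 activates, taken from DNA repair, growth arrest, metabolism, cell death and membrane biology. The MDM2 loop, CDKN1A, GDF15 and the classical apoptosis genes were left out of the list. Each gene was read by its probe set with the highest mean among the probe sets that carry a single gene symbol. In that way 33 of the 35 genes were measured, among 19775 genes on the array. BTG2 and FDXR were not analysed here.

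p53 is a transcription factor that is stabilised after DNA damage and then binds a response element made of paired half-sites near its target genes. The products of these targets recognise lesions, supply nucleotides, stop the cell cycle, adjust metabolism and autophagy, or promote death, and some of them dampen the response again. U-87 MG is an established human glioma line that is known to carry wild-type p53. Temozolomide (TMZ) methylates DNA and is the standard drug against glioblastoma.

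The cells were U-87 MG cells with a stably transfected hairpin, and the labels do not say which promoter drives the hairpin or whether a line is 1 clone. The 4 groups were shp105 cells with 100 uM TMZ, shp105 cells with DMSO, shControl cells with 100 uM TMZ and shControl cells with DMSO, all harvested after 16 h. The hairpin shp105 targets p105, the product of NFKB1 and precursor of the NF-kB subunit p50, and shControl is the control hairpin. The study set NF-kB-deficient against NF-kB-proficient cells in their answer to TMZ. Each group had 3 arrays of total RNA, and all levels below are log2 values. The labels call the replicates biological without naming separate cultures or transfections. Each p-value therefore reflects just how far these samples scatter, and 3 arrays a group limit the precision. In bulk RNA, fewer cells of a type and less RNA per cell cannot be told apart.

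NFKB1, the targeted gene, stood at 7.14, 7.22 and 7.14 in shp105 cells with TMZ, against 7.50, 7.45 and 7.30 in shControl cells with TMZ. With DMSO it stood at 7.17, 7.27 and 7.16 in shp105 cells, against 7.40, 7.23 and 7.34 in shControl cells. It was lower in shp105 cells under TMZ, with -0.25 (SE 0.07, adjusted p = 0.0204) on the log2 scale, and did not pass under DMSO at -0.12 (SE 0.07, adjusted p = 0.260). The call under TMZ was lost without shp105_TMZ replicate 1 or 3 or shControl_TMZ replicate 1 or 2 (adjusted p from 0.0585 to 0.0903), and the adjusted p lay between 0.00505 and 0.565 across the alternatives. Of the glioma markers, VIM (mean log2 level 14.77) and CD44 (12.83) were bright, while the glial genes GFAP (5.11) and OLIG2 (4.68) and the stem cell genes NES (5.23) and SOX2 (5.10) lay below the median gene level of 6.34. Of 9 measured markers of leukocytes, epithelium, endothelium and neurons, only SYT1 (8.10) lay above that median. These means pool the lines, which were not alike in all markers. OLIG2 averaged 5.38 with TMZ and 5.27 with DMSO in shp105 cells, against 4.02 and 4.05 in shControl cells. CD44 went the other way, at 12.63 and 12.74 in shp105 cells, against 12.95 and 12.99. Other probe sets varied. A dimmer OLIG2 probe set (3.53) gave 0.18 under TMZ and -0.24 under DMSO, shp105 minus shControl, and did not pass. The next brightest CD44 probe sets, at 10.87 and 10.76, gave -0.06 and -0.33 under TMZ and -0.05 and -0.29 under DMSO. Array medians ran from 5.04 to 5.09, and no 2 arrays were identical.

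TMZ raised most of these p53 targets on the average of both lines, each by less than 2-fold. Averaged over the lines, 22 of the 33 measured genes rose and 0 fell, where 1.84% of all genes rose, 1.53% fell and 3.36% were called in either direction. The median log2 difference was 0.31 for the p53 targets and 0.01 for all genes. The largest increases were those of PTCHD4, a patched-domain protein (0.77, 1.70-fold), the stress protein TP53INP1 (0.67), the damage sensor DDB2 (0.67, 1.59-fold), the mTORC1 inhibitor SESN1 (0.63) and the semaphorin receptor PLXNB2 (0.60). PTCHD4 was dim, with a mean log2 level of 5.01. For 23 of the 33 genes the 3 TMZ arrays lay above the 3 DMSO arrays in both lines, as they did for 3.22% of all genes. For 0 of the 33 they lay below in both lines, against 2.77% of all genes. With each array centred on its median, the split of all genes called was 290 higher and 507 lower, against 363 and 302 for the values as deposited. This average uses the same arrays as the responses of the single lines.

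In shp105 cells TMZ raised 12 of the 33 genes and lowered 0, where 0.647% of all genes rose and 0.217% fell (0.865% in all). In shControl cells it raised 11 and lowered 0, where 0.253% of all genes rose and 0.116% fell (0.369% in all). The median log2 difference was 0.31 in shp105 cells and 0.29 in shControl cells, against 0.01 and 0.00 for all genes. Called higher in each line were 9 genes, DDB2, XPC, TP53INP1, PHLDA3, TP53I3, SESN1, AEN, TRIAP1 and PLXNB2, while 0.177% of all genes were. With TMZ higher, groups did not overlap for 25 genes in shp105 cells (12.5% of all genes) and for 26 in shControl cells (9.21%). With TMZ lower, they did not overlap for 0 genes in shp105 cells (7.86% of all genes) and for 1, FUCA1, in shControl cells (11.1%). Median centring turned the split of all genes called in shp105 cells to 94 higher and 131 lower, against 128 and 43.

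**Figure D1:**
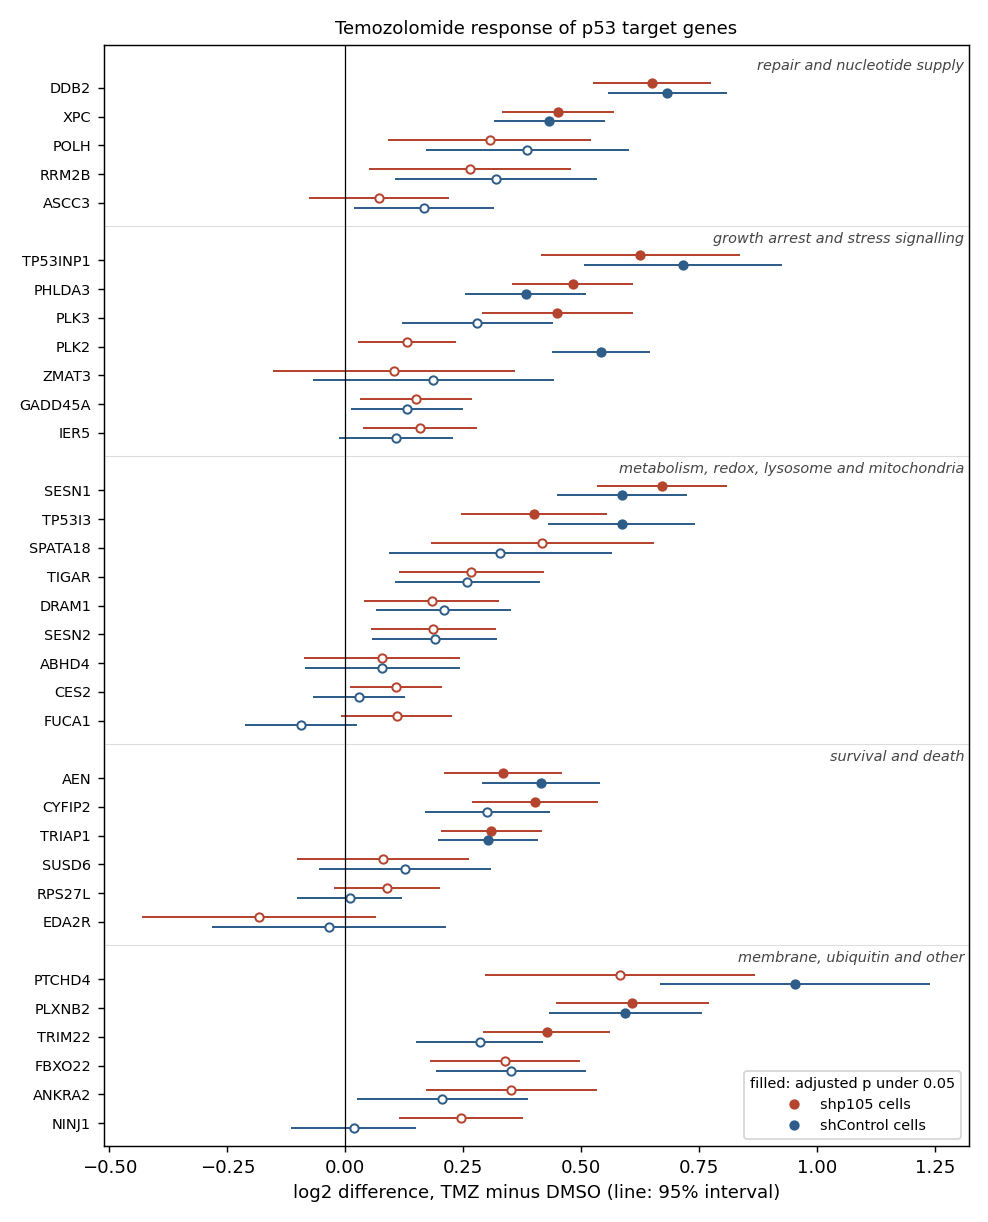
Log2 difference, TMZ minus DMSO, for each of the 33 measured p53 targets in shp105 cells (red) and shControl cells (blue), by role and with 95% intervals of the limma fit that are not adjusted for multiple tests. Filled points passed at an adjusted p under 0.05, and 31 of the 33 genes lie above 0 in both lines.

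In some of these genes the sequence around a start site holds letters that match the half-site pattern of the p53 response element. The RefSeq promoter table (GRCh38.p14) held 26 of the 33 measured genes, with 250 bases before and 50 after each listed start. The p53 half-site consensus has 10 bases and reads the same on both strands, so 1 scan covers both. A paired site was 2 half-sites with a spacer of at most 13 bases, at most 3 mismatches in all and the inner core of each half-site intact. Such a pair lay in 5 of the 26 genes (19.2%), against 5.53% of 27305 genes in the table. A perfect half-site lay in 7 of the 26 (26.9%), against 8.06%. A match is a description of these letters, and the arrays do not measure binding. The genes were listed as known p53 targets, so the higher shares may follow from that choice. Sites outside these windows were not searched. A gene can have several listed starts, and the pair lay in 1 of 3 windows of PTCHD4, 1 of 3 of SESN1 and 1 of 2 of DDB2, while AEN and RPS27L had 1 window each. The lines below give the 250 bases before that start of PTCHD4 (chr6:48111198-48111447, minus strand) and AEN (chr15:88621090-88621339, plus strand), the clearest upstream pairs, with the paired half-sites in capitals.
PTCHD4: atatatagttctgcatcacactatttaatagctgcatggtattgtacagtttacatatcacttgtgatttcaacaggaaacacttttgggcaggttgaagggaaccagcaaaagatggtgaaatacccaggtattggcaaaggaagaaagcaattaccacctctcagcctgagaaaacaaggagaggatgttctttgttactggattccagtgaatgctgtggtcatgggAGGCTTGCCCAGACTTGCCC
AEN: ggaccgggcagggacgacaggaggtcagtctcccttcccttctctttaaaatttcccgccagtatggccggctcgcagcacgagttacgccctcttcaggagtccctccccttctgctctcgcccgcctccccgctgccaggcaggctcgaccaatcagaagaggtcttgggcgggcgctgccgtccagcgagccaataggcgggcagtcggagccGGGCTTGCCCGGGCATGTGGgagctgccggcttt
The pair of PTCHD4 had 0 mismatches and a spacer of 0, and ended at the base before the start. That of AEN had 2 mismatches and ran from 34 to 15 bases before it. The other 3 pairs are shown as sites alone, so that their letters can be set beside those above. They lie at chr11:47214979-47214999 (DDB2, plus strand, with 0 mismatches and 1 spacer base in lower case), chr6:109009018-109009037 (SESN1, minus strand, 3 mismatches) and chr15:63157527-63157546 (RPS27L, minus strand, 3 mismatches).
DDB2: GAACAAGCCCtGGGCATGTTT
SESN1: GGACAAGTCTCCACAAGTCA
RPS27L: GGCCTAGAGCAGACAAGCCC
The DDB2 pair lies after the start, from base 6 to base 26. TMZ raised DDB2, SESN1, AEN and PTCHD4 on the average of the lines, while RPS27L was not called. Over the whole list 22 of the 33 genes rose, and whether a pair goes with a rise was not tested.

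Among the 5 genes of repair and nucleotide supply, 4 rose on the average of the lines. DDB2 encodes the small subunit of the complex that finds damaged bases for nucleotide excision repair. It stood at 10.40, 10.31 and 10.42 in shp105 cells with TMZ, against 9.72, 9.69 and 9.76 with DMSO, and at 10.37, 10.47 and 10.34 in shControl cells with TMZ, against 9.73, 9.65 and 9.75 with DMSO. The 6 TMZ arrays lay above the 6 DMSO arrays, with no overlap. The log2 difference was 0.65 (SE 0.06, adjusted p = 0.000760) in shp105 cells and 0.68 (SE 0.06, adjusted p = 0.000338) in shControl cells. XPC, the partner sensor of that pathway, stood at 9.38, 9.47 and 9.47 in shp105 cells with TMZ, against 9.00, 9.02 and 8.95 with DMSO, and at 9.62, 9.60 and 9.63 in shControl cells with TMZ, against 9.26, 9.12 and 9.17 with DMSO. Its groups did not overlap in either line, and the shp105 values lay below the shControl values of the same treatment. It rose by 0.45 (SE 0.05, adjusted p = 0.00326) in shp105 cells and by 0.43 (SE 0.05, adjusted p = 0.00613) in shControl cells. POLH, a polymerase that copies past lesions, rose on average by 0.35 (SE 0.07, adjusted p = 0.0235), and RRM2B, the damage-induced small subunit of ribonucleotide reductase, by 0.29 (SE 0.07, adjusted p = 0.0428). Neither was called within a line. Of 6 POLH probe sets, 5 had positive differences in both lines and the dimmest had negative ones. ASCC3, a helicase that opens DNA for alkylation repair, had an average difference of 0.12 (adjusted p = 0.195). With its probe sets averaged, ASCC3 passed on the average of the lines (adjusted p = 0.0325).

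Among the 7 measured genes of growth arrest and stress signalling, 4 rose on the average of the lines. TP53INP1, a stress-induced protein that promotes p53 phosphorylation and autophagy, stood at 8.98, 8.66 and 9.08 in shp105 cells with TMZ, against 8.25, 8.26 and 8.34 with DMSO, and at 9.06, 9.08 and 9.12 in shControl cells with TMZ, against 8.32, 8.30 and 8.49 with DMSO. TMZ and DMSO arrays did not overlap in either line. It rose by 0.63 (SE 0.10, adjusted p = 0.0125) in shp105 cells and by 0.72 (SE 0.10, adjusted p = 0.0106) in shControl cells. Its other 2 probe sets had mean levels of 4.76 and 3.37 and differed by less than 0.10 in both lines, and the mean over all 3 did not pass in either line (0.25 in shp105 and 0.23 in shControl cells). PHLDA3, a repressor of the kinase AKT, stood at 8.83, 8.95 and 8.85 in shp105 cells with TMZ, against 8.42, 8.33 and 8.43 with DMSO, and at 8.75, 8.83 and 8.84 in shControl cells with TMZ, against 8.46, 8.47 and 8.35 with DMSO. The groups were apart in both lines. The difference was 0.48 (SE 0.06, adjusted p = 0.00330) in shp105 cells and 0.38 (SE 0.06, adjusted p = 0.0212) in shControl cells.

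The polo-like kinases PLK2 and PLK3, which act in stress checkpoints, showed different patterns. PLK2 stood at 8.86, 8.88 and 8.89 in shp105 cells with TMZ, against 8.73, 8.74 and 8.76 with DMSO, and at 8.77, 8.81 and 8.77 in shControl cells with TMZ, against 8.29, 8.24 and 8.19 with DMSO. The shControl arrays with DMSO were the low group, and the other 3 groups lay within 0.16 of each other. In shp105 cells the difference was 0.13 (SE 0.05, adjusted p = 0.195), which did not pass, and in shControl cells it rose by 0.54 (SE 0.05, adjusted p = 0.000383). PLK3 stood at 6.89, 6.79 and 6.95 in shp105 cells with TMZ, against 6.47, 6.40 and 6.41 with DMSO, and at 6.77, 6.90 and 6.71 in shControl cells with TMZ, against 6.51, 6.40 and 6.63 with DMSO. Its arrays did not overlap between treatments in either line. The difference was 0.45 (SE 0.07, adjusted p = 0.0171) in shp105 cells and 0.28 (SE 0.07, adjusted p = 0.166) in shControl cells, where it did not pass. The 2 dimmer PLK3 probe sets lay near 0 in shp105 cells, at 0.00 and -0.02, and with the mean of all 3 neither the shp105 call (0.15) nor that on average (0.16) was kept. GADD45A, a stress sensor that slows the cell cycle, ZMAT3, an RNA-binding zinc finger protein, and IER5, an early response regulator of heat shock factor, were not called by TMZ, with average differences between 0.13 and 0.15. With its probe sets averaged, ZMAT3 passed on the average of the lines (adjusted p = 0.0412), and GADD45A and IER5 each passed there under 3 of 19 alternatives.

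Among the 9 measured genes of metabolism, redox, lysosome and mitochondria, 6 rose on the average of the lines. SESN1, a sestrin that restrains mTORC1 and guards against oxidants, stood at 8.70, 8.46 and 8.61 in shp105 cells with TMZ, against 7.88, 7.88 and 7.99 with DMSO, and at 8.42, 8.42 and 8.41 in shControl cells with TMZ, against 7.82, 7.84 and 7.82 with DMSO. All TMZ arrays lay above all DMSO arrays of either line. It rose by 0.67 (SE 0.06, adjusted p = 0.000901) in shp105 cells and by 0.59 (SE 0.06, adjusted p = 0.00228) in shControl cells. TP53I3, a quinone oxidoreductase also known as PIG3, stood at 8.17, 8.17 and 8.31 in shp105 cells with TMZ, against 7.80, 7.76 and 7.89 with DMSO, and at 7.97, 8.17 and 7.99 in shControl cells with TMZ, against 7.46, 7.38 and 7.52 with DMSO. The treatments did not overlap within a line, and the shp105 arrays with DMSO lay above the shControl arrays with DMSO. It rose by 0.40 (SE 0.07, adjusted p = 0.0254) in shp105 cells and by 0.59 (SE 0.07, adjusted p = 0.00568) in shControl cells.

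SPATA18, known as Mieap for its role in mitochondrial quality control, stood at 7.12, 7.16 and 7.18 in shp105 cells with TMZ, against 6.47, 6.85 and 6.89 with DMSO, and at 7.48, 7.29 and 7.57 in shControl cells with TMZ, against 7.11, 7.20 and 7.04 with DMSO. The groups were apart in both lines, but neither line passed alone. Its average rise was 0.37 (SE 0.08, adjusted p = 0.0250). TIGAR, which diverts glucose from glycolysis, rose on average by 0.26 (SE 0.05, adjusted p = 0.0186), the sestrin SESN2 by 0.19 (adjusted p = 0.0355) and DRAM1, a lysosomal protein of autophagy, by 0.20 (adjusted p = 0.0417). Of these, the SESN2 and DRAM1 calls were lost under 14 and 13 of 19 alternatives, most of them fits without 1 array, as was the call for RRM2B under 14. A second SESN2 probe set, with a mean log2 level of 8.47 against 8.59 for the one used, had a larger average difference of 0.30. FUCA1, a lysosomal fucosidase, CES2, a carboxylesterase, and ABHD4, a lipid hydrolase, were not called by TMZ. Their average differences lay between 0.01 and 0.08.

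Among the 6 genes of survival and death, 3 rose on the average of the lines. AEN, a nuclease that promotes apoptosis, stood at 9.13, 9.10 and 9.22 in shp105 cells with TMZ, against 8.81, 8.79 and 8.85 with DMSO, and at 9.21, 9.26 and 9.34 in shControl cells with TMZ, against 8.89, 8.79 and 8.89 with DMSO. The treatments did not overlap in either line. The difference was 0.33 (SE 0.06, adjusted p = 0.0219) in shp105 cells and 0.42 (SE 0.06, adjusted p = 0.0106) in shControl cells. TRIAP1, a mitochondrial protein that protects cells from apoptosis, stood at 10.96, 11.00 and 11.07 in shp105 cells with TMZ, against 10.66, 10.71 and 10.73 with DMSO, and at 10.65, 10.67 and 10.67 in shControl cells with TMZ, against 10.39, 10.36 and 10.34 with DMSO. All shp105 arrays of a treatment lay above the shControl arrays of that treatment, and the TMZ arrays above the DMSO arrays of their line. It rose by 0.31 (SE 0.05, adjusted p = 0.0127) in shp105 cells and by 0.30 (SE 0.05, adjusted p = 0.0268) in shControl cells. CYFIP2, a subunit of the actin-regulating WAVE complex, stood at 9.46, 9.54 and 9.42 in shp105 cells with TMZ, against 9.07, 9.07 and 9.08 with DMSO, and at 9.77, 9.78 and 9.62 in shControl cells with TMZ, against 9.49, 9.41 and 9.38 with DMSO. The treatments were apart in both lines. The difference was 0.40 (SE 0.06, adjusted p = 0.0117) in shp105 cells and 0.30 (SE 0.06, adjusted p = 0.0678) in shControl cells, where it did not pass. RPS27L, a ribosomal protein paralog, was the brightest of the 33 genes (mean log2 level 13.62) and had an average difference of 0.05 (adjusted p = 0.494). Its other probe sets, with mean levels of 10.73 and 8.78, had larger average differences of 0.15 and 0.20, which did not pass either. EDA2R, a receptor of the TNF receptor family, was the dimmest (4.46), near the brightest of the absent-sequence control probe sets (2.51 to 4.06). It was the only one of the 33 genes with a negative difference in both lines (-0.18 in shp105 and -0.03 in shControl cells), and it was not called. SUSD6, a sushi-domain membrane protein, was not called either (0.10).

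Among the 6 membrane, ubiquitin and other genes, 5 rose on the average of the lines. PTCHD4, a patched-domain protein that represses hedgehog signalling, stood at 5.30, 5.03 and 5.04 in shp105 cells with TMZ, against 4.32, 4.58 and 4.73 with DMSO, and at 5.80, 5.53 and 5.67 in shControl cells with TMZ, against 4.47, 4.84 and 4.83 with DMSO. The treatments did not overlap in either line, and PTCHD4 and EDA2R were the only 2 of the 33 genes with a mean below the median gene level. With DMSO the PTCHD4 group means, 4.54 in shp105 and 4.72 in shControl cells, lay near the brightest absent-sequence control probe set (4.06). Low signal therefore limits its values. The difference of 0.58 (SE 0.13, adjusted p = 0.0596) in shp105 cells did not pass, while in shControl cells it rose by 0.95 (SE 0.13, adjusted p = 0.0106). PLXNB2 stood at 9.06, 9.30 and 9.20 in shp105 cells with TMZ, against 8.56, 8.66 and 8.52 with DMSO, and at 9.42, 9.45 and 9.43 in shControl cells with TMZ, against 8.89, 8.71 and 8.91 with DMSO. Its TMZ arrays lay above the DMSO arrays of the same line. It rose by 0.61 (SE 0.07, adjusted p = 0.00330) in shp105 cells and by 0.59 (SE 0.07, adjusted p = 0.00613) in shControl cells. A dim second probe set (mean log2 level 4.29) gave -0.16 in shp105 and 0.22 in shControl cells, and with the mean of both probe sets neither line passed, nor did the average (0.32).

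TRIM22, a ubiquitin ligase known for antiviral activity, stood at 10.17, 10.30 and 10.28 in shp105 cells with TMZ, against 9.78, 9.93 and 9.76 with DMSO, and at 10.88, 10.83 and 10.91 in shControl cells with TMZ, against 10.56, 10.63 and 10.57 with DMSO. The shControl arrays lay above the shp105 arrays whatever the treatment, and TMZ was higher within each line. The TMZ difference was 0.43 (SE 0.06, adjusted p = 0.00945) in shp105 cells and 0.28 (SE 0.06, adjusted p = 0.0951) in shControl cells, where it did not pass. FBXO22, a substrate receptor of an SCF ubiquitin ligase, stood at 10.24, 10.14 and 10.05 in shp105 cells with TMZ, against 9.84, 9.70 and 9.88 with DMSO, and at 10.43, 10.42 and 10.32 in shControl cells with TMZ, against 10.12, 9.94 and 10.05 with DMSO. Its groups were apart in both lines, and it passed on the average alone, at 0.35 (SE 0.05, adjusted p = 0.00549). ANKRA2, an ankyrin repeat protein, stood at 8.70, 8.72 and 8.45 in shp105 cells with TMZ, against 8.39, 8.28 and 8.15 with DMSO, and at 8.50, 8.58 and 8.59 in shControl cells with TMZ, against 8.40, 8.36 and 8.29 with DMSO. The treatments again did not overlap. It too passed on the average alone, at 0.28 (SE 0.06, adjusted p = 0.0263). NINJ1, which ruptures the plasma membrane of dying cells, stood at 8.74, 8.74 and 8.74 in shp105 cells with TMZ, against 8.51, 8.39 and 8.58 with DMSO, and at 8.45, 8.49 and 8.44 in shControl cells with TMZ, against 8.44, 8.36 and 8.52 with DMSO. TMZ and DMSO overlapped in shControl cells and were apart in shp105 cells. Its difference was 0.25 (SE 0.06, adjusted p = 0.0749) in shp105 cells and 0.02 (SE 0.06, adjusted p = 0.947) in shControl cells, neither of which passed.

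**Figure D2:**
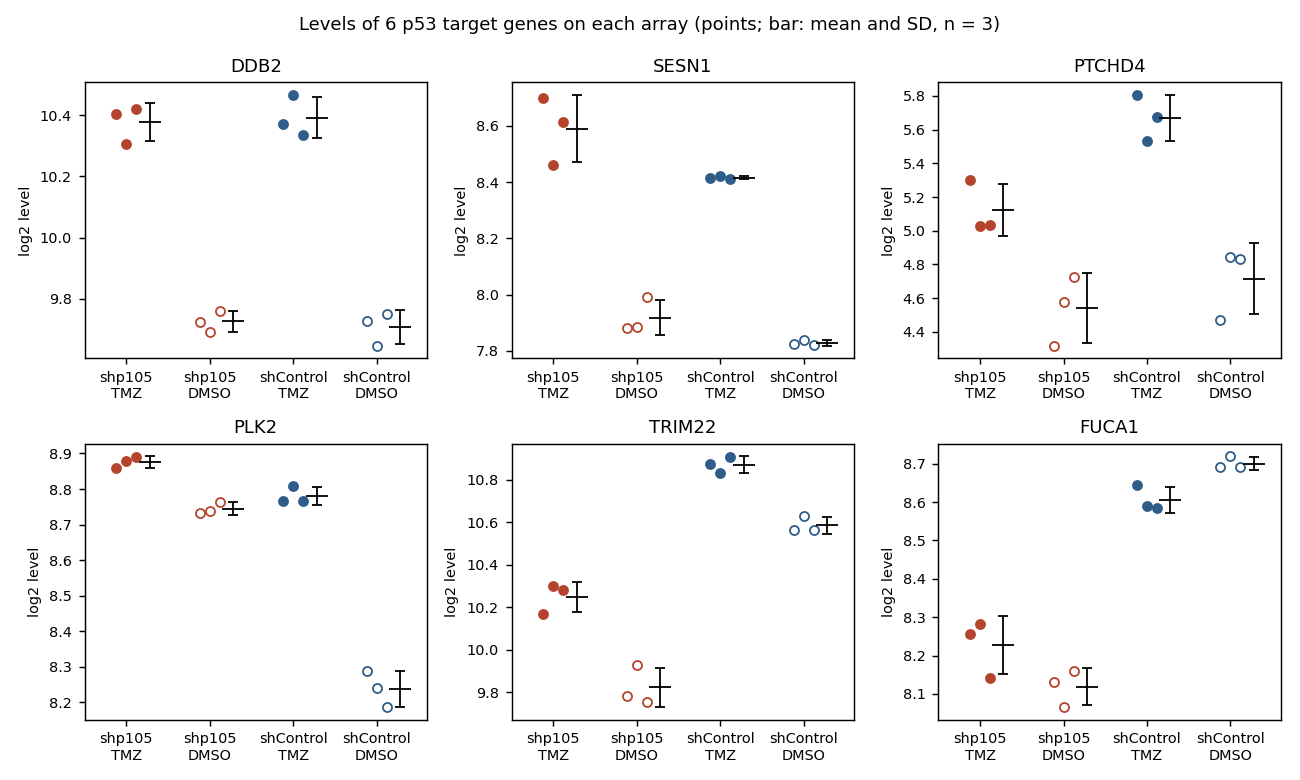
Log2 level on each array for DDB2, SESN1, PTCHD4, PLK2, TRIM22 and FUCA1 in the 4 groups (red shp105, blue shControl, filled TMZ, open DMSO), with the mean and SD of 3 arrays beside the points and axes that do not start at 0. TMZ arrays lie above DMSO arrays of the same line for the first 5 genes, and the shp105 arrays of TRIM22 and FUCA1 lie below all of their shControl arrays.

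The hybridization spike-ins, RNAs added to every sample, moved with treatment and line. Their mean log2 level was 11.32 in shp105 cells with TMZ, against 11.13 with DMSO, and 10.95 in shControl cells with TMZ, against 10.63 with DMSO. The GAPDH 3' minus 5' log2 difference, a sign of RNA quality, was 0.40 and 0.36 in shp105 cells with TMZ and with DMSO, and 0.30 and 0.25 in shControl cells with TMZ and with DMSO. The ACTB 3' minus 5' log2 difference, another such sign, was 3.15, 3.01 and 3.01 in shp105 cells with TMZ, against 3.13, 2.94 and 3.14 with DMSO, and 2.94, 2.78 and 2.83 in shControl cells with TMZ, against 3.04, 3.07 and 2.95 with DMSO. In shControl cells the TMZ arrays lay below the DMSO arrays without overlap. The part of either sign in the results was not tested. When that spike-in level entered the fit as covariate, the median TMZ difference of the 33 genes was 0.27 in shp105 cells, 0.29 in shControl cells and 0.33 on average, while standard errors grew to between 1.36 and 1.95 times their size. Calls then fell to 3 in shp105 cells (DDB2, SESN1 and TRIM22), 0 in shControl cells and 1 on average (DDB2). In the fit of all arrays, 26 of the 33 genes and 3225 of all 19775 genes had an unadjusted p under 0.05 in shp105 cells. With only the arrays of 1 line in the fit, 0 of the 33 genes passed in shp105 cells and 5 in shControl cells, with 2 and 19 of all genes. Without shp105_DMSO replicate 1 or 2, the shp105 count was 5 and 6. Without shControl_TMZ replicate 2 or 3 or shControl_DMSO replicate 2, the shControl count was 7, 6 and 7.

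Leaving out any 1 array kept the TMZ calls of DDB2, XPC, PHLDA3, SESN1 and PLXNB2 in shp105 cells, and of DDB2, XPC, PLK2, TP53I3, SESN1 and PLXNB2 in shControl cells. In shp105 cells, the calls of TP53INP1, TRIAP1 and CYFIP2 were lost without shp105_DMSO replicate 1 or 2, and that of TRIM22 without replicate 1. TP53I3 was lost without those or shp105_TMZ replicate 2 or 3, and PLK3 and AEN without any shp105_DMSO array or shp105_TMZ replicate 3. In shControl cells, PHLDA3 and TRIAP1 were lost without any 1 of the 6 shControl arrays. TP53INP1 and AEN were lost there without shControl_TMZ replicate 2 or 3 or shControl_DMSO replicate 2, and PTCHD4 without shControl_TMZ replicate 1 or 3. On the average of the lines 15 of the 22 calls were kept without any 1 array. TIGAR was lost without shControl_TMZ replicate 1, and POLH, RRM2B, SESN2, DRAM1, SPATA18 and ANKRA2 were each lost without any 1 of several arrays, among them shControl_TMZ replicate 1.

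Genes of the list with a large TMZ difference in one line mostly had a large one in the other. Across the 33 genes the 2 responses, which share no arrays, correlated at Pearson's r = 0.812 (Spearman's rho = 0.818), against 0.331 (0.314) across all 19775 genes. These are descriptions over genes, which are not independent replicates. The difference of the responses, shp105 minus shControl, was called for 0 of the 33 genes and for 0 of all 19775 genes (0%) by limma. At an unadjusted p under 0.05 there were 3 of the 33 genes and 1266 of all genes. The median difference of the 33 genes was 0.01, and that of all genes 0.02.

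PLK2 had the smallest p of the 33 genes for that difference, -0.41 (SE 0.07, adjusted p = 0.138), with a 95% interval of -0.55 to -0.27. Its values, given above, put shControl cells with DMSO apart from the other groups. It was called when genes below the median level were left out and with trend and robust fitting, and the adjusted p lay between 0.0109 and 0.423 across the alternatives. FUCA1 followed at 0.20 (SE 0.07, adjusted p = 0.741) with an interval of 0.04 to 0.37. It stood at 8.26, 8.28 and 8.14 in shp105 cells with TMZ, against 8.13, 8.07 and 8.16 with DMSO, and at 8.64, 8.59 and 8.58 in shControl cells with TMZ, against 8.69, 8.72 and 8.69 with DMSO. TMZ was lower than DMSO in shControl cells without overlap, and the treatments overlapped in shp105 cells. For NINJ1 the difference of responses was 0.23 (SE 0.08, adjusted p = 0.741) with an interval of 0.04 to 0.41. For PTCHD4 it was -0.37 (SE 0.18, adjusted p = 0.790) with an interval of -0.77 to 0.03. For the other 29 genes the estimate lay between -0.19 and 0.17, and a difference that misses the threshold does not show equal responses.

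**Figure D3:**
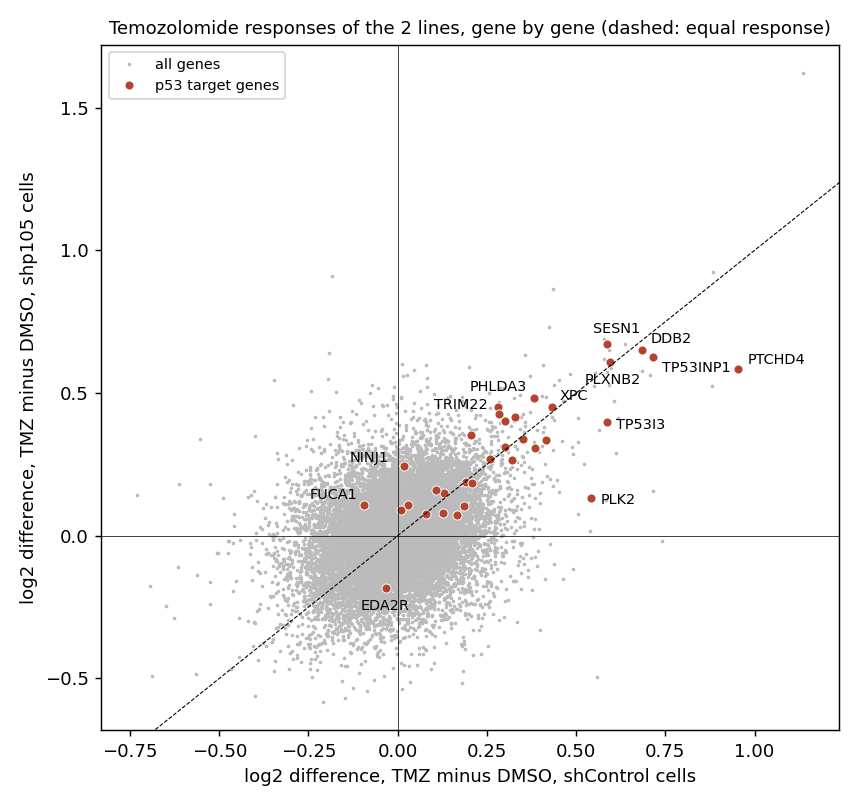
Log2 difference, TMZ minus DMSO, in shp105 cells (y axis) against shControl cells (x axis) for the 33 p53 targets (red) and all 19775 genes (grey), with the line of equal response dashed. The responses of the p53 targets correlated between the lines (r = 0.812), and PLK2 and PTCHD4 lie on the shControl side of the dashed line.

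The other p53 pathway genes that TMZ changed were all higher. Of 16 listed, 14 were measured, and on the average of the lines 8 rose and 0 fell. In shp105 cells 6 rose, the cytokine GDF15 (1.62), the cell-cycle inhibitor CDKN1A (0.92), the death receptor FAS (0.62), the phosphatase PPM1D (0.56), the p53 ligase MDM2 (0.47) and the checkpoint kinase CHEK2 (0.36). In shControl cells 5 rose, GDF15 (1.14), CDKN1A (0.88), MDM2 (0.61), FAS (0.58) and the pore-forming BAX (0.43). BAX passed narrowly there (adjusted p = 0.0494). Of all genes, 1.84% rose and 1.53% fell on the average of the lines, while 0.647% rose in shp105 cells and 0.253% in shControl cells. CCNG1, a cyclin that p53 induces, rose on the average alone (0.21, adjusted p = 0.0145). The damage kinases ATM and ATR and the checkpoint kinase CHEK1 had average differences between -0.06 and -0.003 and were not called.

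Between the lines the p53 targets differed in both directions, and more were lower in shp105 cells. Under TMZ, 3 of the 33 genes were higher and 12 lower in shp105 cells, where 10.1% of all genes were higher and 11% lower. Under DMSO, 3 were higher and 11 lower, where 8.34% of all genes were higher and 11.6% lower. The share called in either direction was 45.5% under TMZ and 42.4% under DMSO, against 21.1% and 19.9% of all genes. Just 2 of the 33 genes lay below the median gene level, so these shares are not matched for level. Without genes below that median, the calls were 19 p53 targets and 4332 of all genes under TMZ, and 16 and 4176 under DMSO. Fewer genes were tested there, yet more were called than in the full set. The median log2 difference of the 33 genes was -0.15 under TMZ and -0.09 under DMSO, and that of all genes -0.01 and -0.02. Under TMZ the lines did not overlap for 7 genes higher (17.2% of all genes) and 16 lower (18.5%) in shp105 cells. Under DMSO these counts were 6 (15.1%) and 12 (20.8%). With each array centred on its median, the DMSO split was 4 higher and 7 lower of the 33 genes, and 2125 higher and 1769 lower of all genes, against 1650 and 2287.

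TRIM22 differed most between the lines. Its log2 levels were 10.17, 10.30 and 10.28 in shp105 cells and 10.88, 10.83 and 10.91 in shControl cells under TMZ, and 9.78, 9.93 and 9.76 in shp105 cells and 10.56, 10.63 and 10.57 in shControl cells under DMSO. The shp105 arrays were the lower ones under both treatments, with no overlap. The difference was -0.62 (SE 0.06, adjusted p = 1.80e-05) under TMZ and -0.76 (SE 0.06, adjusted p = 3.15e-06) under DMSO. For FUCA1 the log2 levels were 8.26, 8.28 and 8.14 in shp105 cells and 8.64, 8.59 and 8.58 in shControl cells under TMZ, and 8.13, 8.07 and 8.16 in shp105 cells and 8.69, 8.72 and 8.69 in shControl cells under DMSO. Again the lines did not overlap. The difference was -0.38 (SE 0.05, adjusted p = 0.000305) under TMZ and -0.58 (SE 0.05, adjusted p = 1.05e-05) under DMSO. CYFIP2, whose values stand above, differed by -0.25 (SE 0.06, adjusted p = 0.0108) under TMZ and -0.35 (SE 0.06, adjusted p = 0.00131) under DMSO, and its dimmer probe set gave -0.69 and -0.75. SPATA18 did not pass under TMZ at -0.29 (SE 0.11, adjusted p = 0.0756) and was lower under DMSO at -0.38 (SE 0.11, adjusted p = 0.0252). Its dimmer probe set pointed the other way, at 0.29 under DMSO.

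PTCHD4 was lower in shp105 cells under TMZ at -0.55 (SE 0.13, adjusted p = 0.0102), where the lines did not overlap. Under DMSO its arrays overlapped and the difference was -0.18 (SE 0.13, adjusted p = 0.429). ZMAT3 had log2 levels of 10.85, 10.54 and 10.57 in shp105 cells and 11.14, 10.93 and 10.97 in shControl cells under TMZ, and 10.72, 10.35 and 10.58 in shp105 cells and 10.93, 10.91 and 10.64 in shControl cells under DMSO. The lines were apart under TMZ and overlapped under DMSO. The difference was -0.36 (SE 0.12, adjusted p = 0.0473) under TMZ and -0.28 (SE 0.12, adjusted p = 0.133) under DMSO. Of its 4 other probe sets, the 3 brightest gave -0.54, -0.57 and -0.67 under TMZ and -0.49, -0.63 and -0.42 under DMSO, larger than the probe set used.

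Lower in shp105 cells under both treatments were 10 genes, XPC, IER5, TIGAR, FUCA1, CES2, DRAM1, CYFIP2, PLXNB2, TRIM22 and FBXO22, and 8.19% of all genes were called lower under both. With probe sets averaged per gene, the calls of FUCA1 (-0.18), CES2 (-0.10) and PLXNB2 (-0.23) under TMZ and of SPATA18 (-0.05), PLXNB2 (-0.06) and FBXO22 (-0.14) under DMSO were lost. The second FUCA1 probe set had a mean level of 2.84, within the range of the absent-sequence controls. Under DMSO the FBXO22 probe sets with mean levels of 10.09, 9.25 and 8.50 gave -0.23, -0.22 and -0.31. Those at 5.71 and 3.93 gave 0.00 and 0.06. Besides the genes already described, IER5 differed by -0.26 under TMZ and -0.31 under DMSO, CES2 by -0.20 and -0.28, and TIGAR by -0.24 and -0.25. The other 2 CES2 probe sets, with mean levels of 8.96 and 8.73, gave -0.04 and -0.05 under TMZ and -0.10 and -0.23 under DMSO. By role, the measured genes of metabolism, redox, lysosome and mitochondria had 4 of 9 lower and 0 higher under TMZ, and 5 lower and 1 higher under DMSO. The 5 repair genes had 1 lower, XPC, under either treatment. DDB2, the clearest TMZ-induced gene of the list by p, differed by -0.01 under TMZ and 0.02 under DMSO, with 95% intervals of -0.14 to 0.11 and -0.11 to 0.14.

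TRIAP1 was the only one of the 33 genes called higher in shp105 cells under both treatments, as 6.6% of all genes were, at 0.35 (SE 0.05, adjusted p = 0.000265) under TMZ and 0.34 (SE 0.05, adjusted p = 0.000322) under DMSO. PLK2 was not called under TMZ at 0.10 (SE 0.05, adjusted p = 0.181) and was higher under DMSO at 0.51 (SE 0.05, adjusted p = 1.05e-05). TP53I3 had 0.17 (SE 0.07, adjusted p = 0.105) under TMZ, which did not pass, and was higher under DMSO at 0.36 (SE 0.07, adjusted p = 0.00308). GADD45A (0.16, adjusted p = 0.0463) and NINJ1 (0.28, adjusted p = 0.00483) were called higher under TMZ and not under DMSO.

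**Figure D4:**
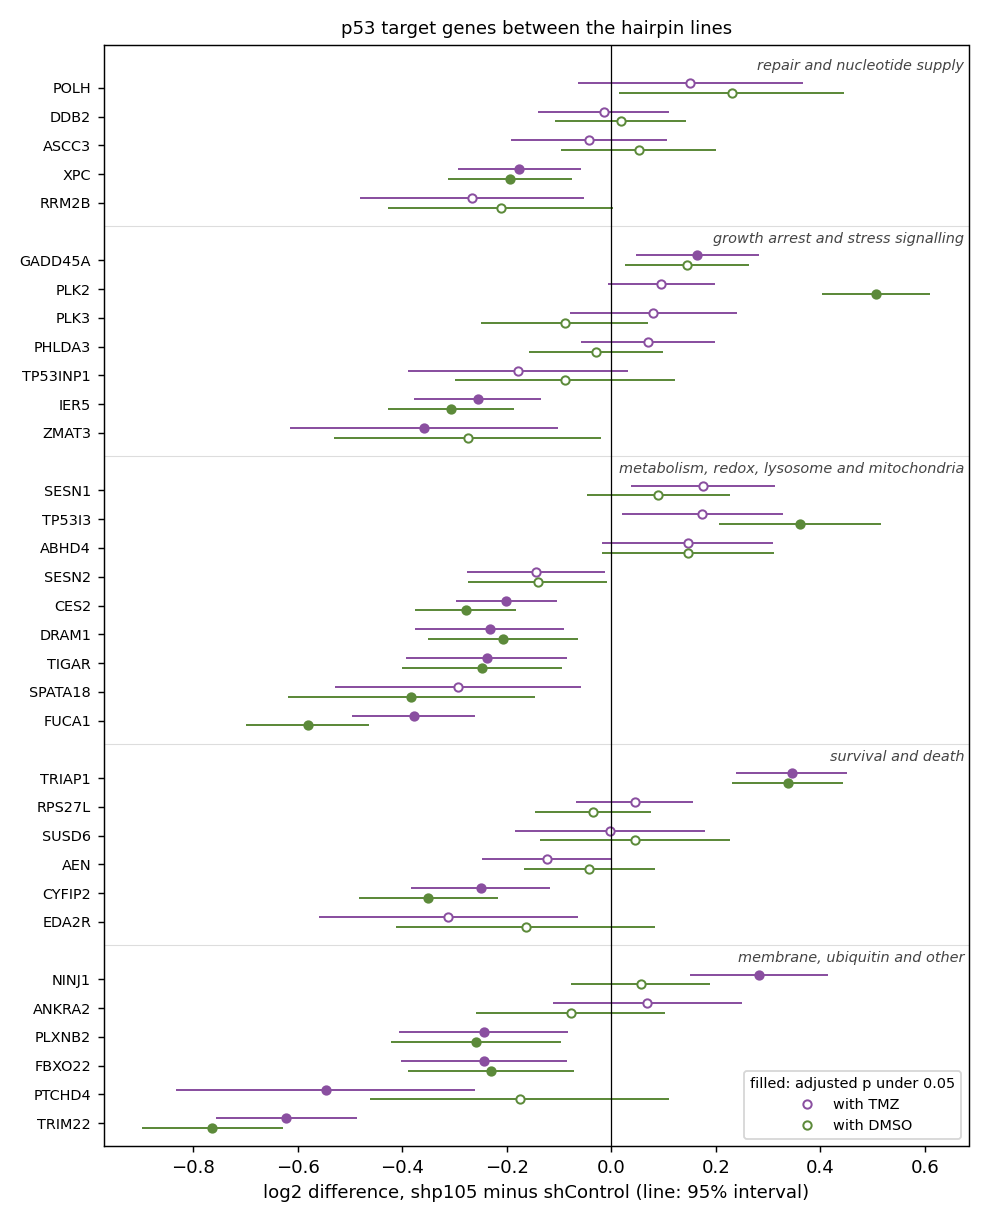
Log2 difference, shp105 minus shControl, for each of the 33 measured p53 targets under TMZ (purple) and DMSO (green), by role and with 95% intervals that are not adjusted for multiple tests. Filled points passed at an adjusted p under 0.05, with TRIM22 lowest under both treatments and PLK2 highest under DMSO.

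Of the 14 other p53 pathway genes measured, 3 were lower in shp105 cells under TMZ, CDKN1A (-0.36), FAS (-0.43) and BAX (-0.44). Higher there were 2, GDF15 (0.23) and PMAIP1 (0.60), a BCL2 relative that promotes apoptosis. Of all genes, 11% were lower and 10.1% higher under TMZ. Under DMSO 4 were lower, CDKN1A, FAS, CHEK2 and GDF15 (from -0.47 to -0.25), and 2 higher, PMAIP1 (0.91) and MDM2 (0.33). There 11.6% of all genes were lower and 8.34% higher. The dimmer GDF15 probe sets pointed the other way under DMSO, at 0.29 and 0.07, and gave 0.55 and 0.00 under TMZ. Those of MDM2 went in both directions under DMSO, from -0.16 to 0.24. The spike-in level differed between the lines under both treatments, and with it as a covariate 3 of the 33 genes passed under TMZ (FUCA1, TRIAP1 and TRIM22) and 1 under DMSO (FUCA1), with standard errors 1.98 and 2.48 times as large. Without shp105_TMZ replicate 3 or shControl_TMZ replicate 1 or 3 the TMZ count was 9, and without shp105_DMSO replicate 1 or shControl_DMSO replicate 1 the DMSO count was 8. With only the arrays of the compared groups in the fit, 7 of the 33 genes passed under TMZ and 8 under DMSO, with 3147 and 3518 of all 19775 genes. Kept without any 1 array were 8 of the 15 calls under TMZ, IER5, FUCA1, CES2, TRIAP1, CYFIP2, NINJ1, PTCHD4 and TRIM22, and 8 of the 14 under DMSO, PLK2, IER5, TP53I3, FUCA1, CES2, TRIAP1, CYFIP2 and TRIM22. The other 7 calls under TMZ were lost without shControl_TMZ replicate 2, among other arrays, and the other 6 under DMSO without shp105_DMSO replicate 1 or shControl_DMSO replicate 1, among others.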

How the data were processed

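Total RNA of 12 U-87 MG samples was measured on Affymetrix expression arrays. The deposited values are log2 levels per probe set, made by the authors with RMA and Affymetrix Power Tools, per the submitters' processing notes. The sources used here do not give the versions, the annotation release or a genome build. RMA normalizes the arrays together, so a change shared by most genes would not show.

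Of 54675 probe sets, 41097 carry 1 gene symbol in the platform annotation, updated through RefSeq (54 kept an old symbol), 1801 carry several and 11777 none. The single-symbol probe set with the highest mean stood for each of 19775 genes. limma 3.58.1 (R 4.3.3, lmFit and eBayes) fitted the 4 group means over all 12 arrays. Tests were 2-sided, and p-values were adjusted by Benjamini-Hochberg over all genes and called under 0.05. There were 6 comparisons. Errors are standard errors of the fit. The averaged TMZ response, the responses of each line and the line differences share arrays.

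Values per array and full statistics are given, in the TMZ response of each line, for called genes and the 3 uncalled with the smallest p; on average, for the 10 largest called differences; between lines, for the 8 largest; and for the difference of responses, for the 4 smallest p. Promoter windows were searched in Python 3.11.15, and figures drawn with matplotlib 3.10.9. The genes, the lists and the alternatives were chosen with earlier results of these data known. The alternatives were probe sets averaged per gene, median centring, quantile normalization, a filter on dim genes, trend and robust fitting, a replicate block, the spike-in level as a covariate, only the compared groups, and each array left out in turn.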

Additional observations from a re-analysis of the deposited data

How the results depend on the processing

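No called value of a named gene changed sign under any alternative run. Trend and robust fitting called 19 of the 33 p53 targets for TMZ in shp105 cells, 17 in shControl cells and 1 (PLK2) for the difference of responses, and of all genes 937, 358 and 12, with 1643 on average. Leaving out genes below the median level, which tests fewer genes, gave 1 p53 target (PLK2) for the difference of responses, and of all genes 904 for TMZ in shp105 cells, 291 in shControl cells, 1743 on average and 8 for the difference. Probe sets averaged per gene gave 45 of all genes in shControl cells and 371 on average. With the spike-in covariate, 3, 0 and 1 of the p53 targets passed for TMZ in shp105 cells, in shControl cells and on average, and 3 and 1 between the lines in TMZ and in DMSO. Of all genes it left 13, 0, 4, 1045 and 523 in the same order. When the fit held just the compared groups, fewer arrays estimated the spread. The p53 targets called were then 0 for TMZ in shp105 cells, 5 in shControl cells, 7 between the lines in TMZ and 8 in DMSO. Of all genes this fit left 2, 19, 3147 and 3518 in the same order. Where no construction is named, the cause was not tested.

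Deviations of same-numbered arrays from their group means correlated weakly between groups (r from -0.111 to 0.122, over 0.1 in 2 of 12 pairs). The labels do not say what the number stands for, and these values cannot tell whether such arrays share a culture or a day. The replicate block left 11, 9 and 19 of the p53 targets called for TMZ in shp105 cells, in shControl cells and on average, 12 and 14 between the lines in TMZ and in DMSO, and 0 for the difference of responses. Of all genes it left 84, 30 and 349 for TMZ, and 3885 and 3677 between the lines in TMZ and in DMSO.

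Leaving out 1 array at a time, the p53 targets called were 5 to 13 for TMZ in shp105 cells, 6 to 11 in shControl cells, 15 to 21 on average, 9 to 15 between the lines in TMZ, 8 to 15 in DMSO and 0 for the difference of responses. For all genes the counts were 49 to 188, 16 to 76, 215 to 649, 3219 to 4059, 3042 to 4171 and 0. Median centring gave 290 higher and 507 lower of all genes for TMZ on average, against 363 and 302 as deposited, 94 and 131 in shp105 cells, against 128 and 43, and 2125 and 1769 between the lines in DMSO, against 1650 and 2287. Low signal limits genes near the level of the absent-sequence controls, such as EDA2R and, with DMSO, PTCHD4.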
